A study of Mus musculus with 6 samples.

Results

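RNA recovered from mouse heart lysate with an antibody against Cnot3 was compared with RNA recovered from the same kind of lysate with control IgG. Of the 24421 gene symbols in the deposited table, 13130 reached 0.5 CPM (reads of a gene scaled to a fixed library total) in at least 2 of the 6 libraries, and all of these were tested. Hearts came from C57BL6/J mice aged 4 weeks, and no genetic change or drug treatment is given for any group. The compared libraries were 2 of Cnot3 RIP (RNA immunoprecipitation with anti-Cnot3 IgG) and 2 of control IgG RIP, and 2 Input libraries of unselected lysate RNA entered the fit for the estimate of spread and are shown beside them. The series gives 2 experiments but does not say whether they used separate animals or pools, so each p-value rests on library-to-library spread alone, and that spread may be technical. Whole heart holds many cell types, and fewer cells of a type and less RNA per cell cannot be told apart in such samples.

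Cnot3 is a non-catalytic subunit of the CCR4-NOT complex, the main deadenylase machinery of the cytoplasm, whose removal of poly(A) starts the silencing and decay of mRNAs. The complex can be brought to mRNAs by adaptors that read elements in the 3' UTR. Among them are tristetraprolin and its relatives on AU-rich elements, Pumilio proteins on their own element, and the TNRC6 partners of Argonaute on microRNA sites. Transcripts of short half-life, such as those of cytokines, immediate-early transcription factors and feedback inhibitors of signalling, are its textbook substrates. RIP reads out which transcripts come down with a protein, directly or through other proteins, and the control IgG shows what comes down without it.

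Examples of both kinds of element in genes called higher in Cnot3 RIP are printed because the later count by 3' UTR motif turns on them. The first set is the 30-base window of the 3' UTR with the most AU-rich pentamers in Tnf, Ptgs2 (prostaglandin synthase 2), the kinase Pim1 and Eno2 (neuronal enolase), with each pentamer ATTTA in capitals. On build mm10 these lie at chr17:35199677-35199706 (minus strand), chr1:150105794-150105823 (plus strand), chr17:29495691-29495720 (plus strand) and chr6:124760759-124760788 (minus strand), all in 3' UTR exons of GENCODE M21.
Tnf: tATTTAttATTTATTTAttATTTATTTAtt
Ptgs2: ccatATTTATTTATTTAtgtgaagaATTTA
Pim1: taatgtATTTATTTATTTATTTAtttggtt
Eno2: tATTTATTTATTTATTTATTTATTTATTTA
In these windows the pentamers overlap into runs, with 5 pentamers in Tnf, 4 in Ptgs2, 4 in Pim1 and 7 in Eno2. The whole 3' UTRs hold 8, 14, 5 and 10 of them. Ptgs2 and Eno2 were picked for display after their values were seen.

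The second set shows matches to the seed of let-7, a microRNA family abundant in adult heart. Mature members are printed from RefSeq (GRCm38.p6), with bases 2 to 8, the seed, in capitals.
mmu-let-7a-5p: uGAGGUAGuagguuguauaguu
mmu-let-7c-5p: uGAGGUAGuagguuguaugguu
mmu-let-7g-5p: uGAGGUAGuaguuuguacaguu
The RefSeq table holds 11 mature mouse microRNAs with this seed. The sites below are 24 bases of mm10 3' UTR ending in the seed complement CTACCTC, in capitals. They lie at chr16:17259367-17259390 and chr16:17262868-17262891 in Hic2 (plus strand), chr2:153229899-153229922 in Plagl2 (minus strand), chr2:38723676-38723699 in Nr6a1 (minus strand), and chr7:104233456-104233479 and chr7:104233501-104233524 in Trim6 (plus strand).
Hic2, first site: tggtgctggtgactattCTACCTC
Hic2, last site: taccagggacccctcccCTACCTC
Plagl2: gattcagaaacacacttCTACCTC
Nr6a1, last pair of sites but one: catgaacCTACCTCaggCTACCTC
Trim6, first site: aaatactgattatagatCTACCTC
Trim6, second site: aaatactgattatagctCTACCTC
Hic2 has 4 such sites in its annotated 3' UTR, Nr6a1 has 8, Trim6 has 6 and Plagl2 has 1. The first Trim6 sites sit in a repeated unit, so the copies share nearly all their bases.

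The libraries held 15713318 to 33479580 reads, of which the 45S ribosomal RNA row Rn45s took 59.4% and 60.2% with control IgG, 51.1% and 53.1% with anti-Cnot3, and 78.3% and 79.2% of Input reads. Levels below are CPM rescaled for this composition by the trimmed mean of M values (TMM), called scaled CPM, and 3 reads, the limit a count of 0 allows, stood for 0.0900 to 0.277 scaled CPM (counting error only). The 4 compared libraries are abbreviated IgG-1, IgG-2, Cnot3-1 and Cnot3-2. A pair of unlike label was the closest of all: IgG-2 and Cnot3-1 had a gene-wise difference with an SD of 0.45 log2, against 0.50 between the control IgG libraries and 0.59 between the Cnot3 libraries. Summed over 8 cardiomyocyte markers, the libraries held 132143 (IgG-1), 68978 (IgG-2), 67220 (Cnot3-1) and 79934 (Cnot3-2) scaled CPM. Endothelial markers summed to 353 and 501 against 511 and 299, so the groups overlapped for both cell types. The mRNA of Cnot3 itself (chr7:3645268-3661109, plus strand) stood at 6.87 and 6.02 scaled CPM with control IgG and 9.19 and 14.3 with anti-Cnot3, which did not pass the limma test (adjusted p = 0.155); the antibody binds the protein, so this row does not check the labels.

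In the fit across all genes (limma, adjusted p under 0.05), 202 of 13130 genes were higher in Cnot3 RIP, a background share of 1.54%, and 37 were lower, a share of 0.282%. The higher genes differed by a median of 2.03 log2 units (range 1.02 to 4.78) and the lower ones by -1.94. Every one of the 239 had no overlap between the groups, which over all genes tested held for 24% on the higher side and 21.8% on the lower side. By edgeR 242 genes were higher (1.84%) and 53 lower (0.404%), by DESeq2 573 (4.36%) and 160 (1.22%), and at an unadjusted limma p under 0.05 the counts were 1434 (10.9%) and 830 (6.32%). Of the higher genes, 198 are annotated as protein-coding, and of the lower ones 20, while 12123 of the 13130 genes tested are so annotated. The lists of transcription factors and chromatin genes, signalling pathways and mRNA decay held 75 of the 202 (37.1%), and 119 lay in at least 1 list other than that of placeholder symbols. Within these 3 classes the shares called higher were 5.86% of 700, 14% of 172 and 18.1% of 72 genes tested, against 1.54% of all genes. All lists were chosen with earlier results of these data known, so list shares here and below describe the calls and do not test enrichment. The filter on low values was passed only through the Cnot3 libraries by 11 of the 202, meaning that fewer than 2 other libraries reached the minimum. These were Bbc3, Ccl2, Clcf1, Eno2, Gm527, Kbtbd8, Lif, Nfkbid, Socs1, Tnf and Trim6. Passing in this way favours a higher call but does not fix it. The filter was passed only through the control IgG libraries by 2 of the 37, and only through the Cnot3 libraries by 5 of the 75. Over all 13130 genes tested, 549 passed only through the Cnot3 libraries and 634 only through the control IgG libraries.

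These counts depended strongly on single libraries. With IgG-1 left out limma called 0 genes on either side (736 higher and 383 lower unadjusted, and 0 and 0 in edgeR). With IgG-2 left out the counts were 78 and 34, with Cnot3-1 left out 1014 and 263, and with Cnot3-2 left out 29 and 0 (656 and 367 unadjusted, 79 and 2 in edgeR). Leaving out Input replicate 1 or Input replicate 2, which changes only the spread and the scaling, gave 118 and 25 or 108 and 18. All 202 and all 37 genes had the same sign in every one of these fits, as their selection nearly fixes. Within the higher set the median level was 5.48 (IgG-1), 7.29 (IgG-2), 20.5 (Cnot3-1) and 35.7 (Cnot3-2) scaled CPM. Cnot3-2 exceeded Cnot3-1 for 193 of the 202 genes, against 55.2% of all genes tested. With 2 libraries against 2, exact permutation cannot go below p = 0.333 for any one gene. Marker lists of 10 cell types gave no called gene in limma, edgeR or DESeq2 at an adjusted p under 0.05, except 1 fibroblast marker in DESeq2. At an unadjusted limma p under 0.05, 1 fibroblast marker was higher and 1 nerve marker lower.

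Hic2 and Nfkbia had the smallest p of all genes. Hic2 (chr16:17233572-17263430, plus strand), a transcriptional repressor, had 2.94 and 3.76 scaled CPM with control IgG and 25.9 and 34.8 with anti-Cnot3. Its log2 fold change was 3.08 with an SE of 0.27 (limma adjusted p = 0.00755). Nfkbia (chr12:55489410-55492647, minus strand), which encodes the inhibitor that holds NF-kappaB in the cytoplasm, rose from 10.7 and 13.1 to 206 and 538, a log2 fold change of 4.78 with an SE of 0.45 (limma adjusted p = 0.00755). Both Cnot3 libraries lay far above both control libraries for these genes, and the Cnot3 libraries themselves differed more for Nfkbia than for Hic2. Plag1 and Plagl2, related zinc finger activators, followed. Plag1 had 3.12 and 3.98 scaled CPM with control IgG against 19.4 and 24 with anti-Cnot3, and Plagl2 had 7.62 and 11.3 against 61.6 and 105. Their folds were 5.79 and 8.45. D5Ertd579e, a protein-coding gene with a placeholder-like name, had 78.5 and 91.6 scaled CPM against 820 and 2188 and was one of the largest gains in level. Bri3bp stood at 13 and 17.5 against 56.4 and 88.3, a 4.62-fold difference.

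**Figure D1:**
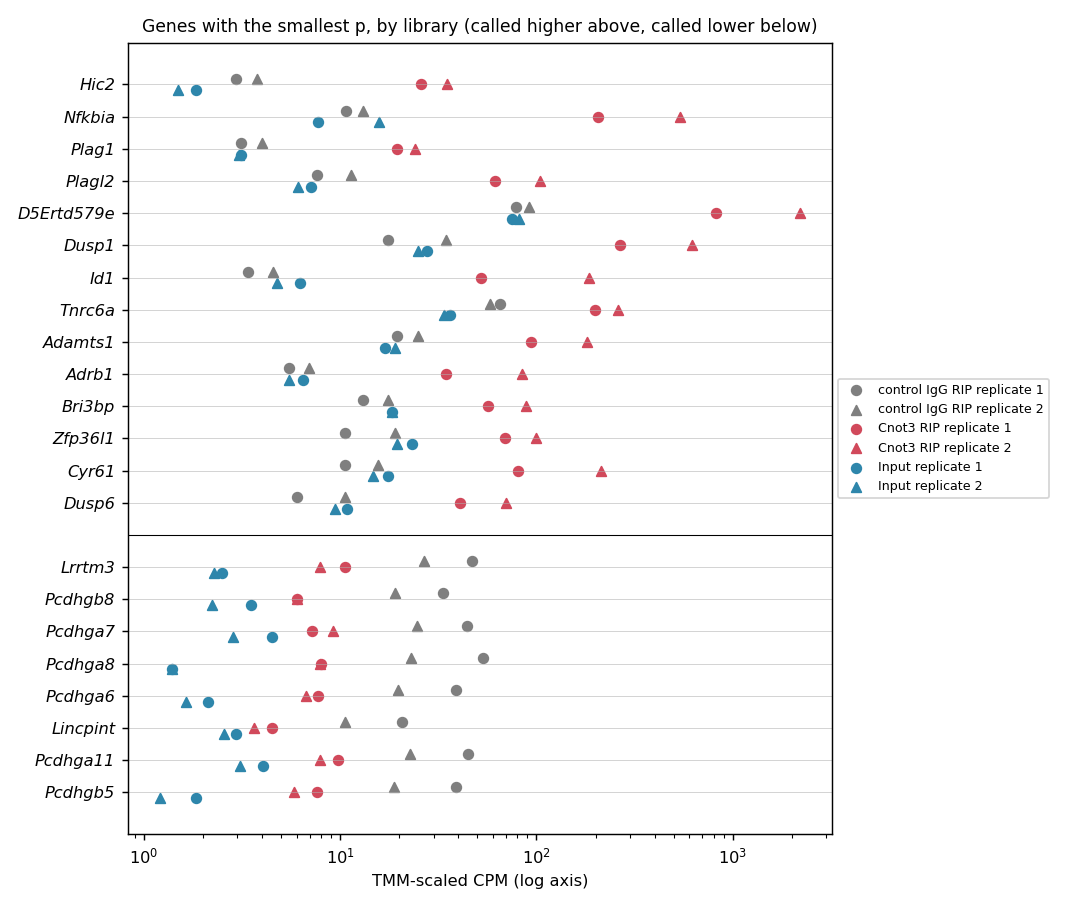
Scaled CPM (log axis) of the 14 higher and 8 lower genes with the smallest limma p among those of at least 10 scaled CPM in the higher group, one point per library (circles replicate 1, triangles replicate 2). For each gene above the line both Cnot3 RIP points lie right of both control IgG RIP points, and below the line both lie left; for Hic2 the control libraries sit at 2.94 and 3.76 and the Cnot3 libraries at 25.9 and 34.8.

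Adaptors of the CCR4-NOT complex were themselves among the transcripts called higher. Of 26 tested regulators of decay (tristetraprolin family, BTG and TOB proteins, CPEB and Pumilio proteins and others), 11 were higher and 0 lower (42.3%, against 1.54% of all genes), with a list median of 1.11 against 0.00 over all genes. The medians in the 4 pairs of 1 Cnot3 and 1 control library ran from 0.66 to 1.68. This list too was chosen with earlier results known, so its share is descriptive only. The tristetraprolin family, zinc finger proteins that bind AU-rich elements and recruit CCR4-NOT, had all of its 3 listed members called. Zfp36l1 stood at 10.6 and 19.1 scaled CPM with control IgG and 69.3 and 99.9 with anti-Cnot3 (log2 fold change 2.53, SE 0.31, limma adjusted p = 0.0131). Zfp36l2 had 6.58 and 8.01 against 24.1 and 38.3. Zfp36, tristetraprolin itself, had 12.5 and 11.9 against 73.5 and 302.6. The Zfp36l1 and Zfp36l2 groups were separated with modest spread, whereas the Cnot3 libraries differed widely for Zfp36.

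Among the BTG and TOB proteins, which bind the deadenylase subunits, Btg2 stood at 8.42 and 18.5 scaled CPM against 68.8 and 154, an 8.10-fold difference. Tob2 rose from 44.2 and 32.7 to 183 and 693, and Tob1 from 19.9 and 18.9 to 58.7 and 156. Btg1, with 2.94 and 3.40 against 6.41 and 11.1, narrowly missed the threshold (limma adjusted p = 0.0588). The CPEB proteins, which bind cytoplasmic polyadenylation elements, were split. Cpeb2 had 38.8 and 39.0 against 122.9 and 239, and Cpeb4 had 84.6 and 83.0 against 306 and 715, both called. Cpeb1 (log2 fold change 0.09) and Cpeb3 (0.83) did not pass, and neither did Pum2 (0.38). The roquin gene Rc3h1, an RNA-binding ubiquitin ligase, was called with 79.4 and 64.7 against 227 and 609, and the list also held Elavl1 (log2 fold change 1.5), an AU-rich element binder that stabilises mRNAs, and Zc3h12c (1.30).

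The silencing factors and the deadenylation and decapping machinery had few calls. Of 13 Argonaute, TNRC6 and microRNA processing genes 1 was called: Tnrc6a (chr7:123123885-123195296, plus strand), the scaffold that links Argonaute to CCR4-NOT, at 65.2 and 57.8 against 199 and 260 (3.70-fold, limma adjusted p = 0.0131). Its paralogs Tnrc6b (147 and 144 against 260 and 310, limma adjusted p = 0.0669) and Tnrc6c (74.6 and 55.2 against 87.8 and 135) did not pass. Of 33 deadenylase, decapping and exonuclease factors 1 was called, Dcp1a, a decapping co-activator, at 12.9 and 13.49 against 35.5 and 75.4. The scaffold subunit Cnot1 had a log2 fold change of -0.27. Over all 72 genes of mRNA decay 13 were higher; that count was 0 without IgG-1, 4 without IgG-2, 30 without Cnot3-1 and 5 without Cnot3-2.

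Signalling pathway lists, which hold ligands, receptors and effectors as well as feedback inhibitors, gave 24 higher and 0 lower of 172 tested genes, with a median of 0.54; 20 of the 24 passed the filter on low values without the Cnot3 libraries. Dusp1 (chr17:26505590-26562128, minus strand), a phosphatase that switches off MAP kinases, stood at 17.6 and 34.5 scaled CPM with control IgG and 266 and 622 with anti-Cnot3, a log2 fold change of 4.03 with an SE of 0.42 (limma adjusted p = 0.00802). Dusp6, which acts on ERK, rose from 6 and 10.6 to 40.7 and 69.7. Spry2, a Sprouty inhibitor of receptor kinase signalling, had 6 and 8.42 against 16.7 and 33.5. In that list of 20 phosphatases and Sprouty or Spred inhibitors 3 were called, and 18 lay above 0, with a median of 1.23, the highest of all lists; in the 4 library pairs it ran from 0.65 to 1.73.

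Of 20 NF-kappaB genes 4 were higher, and these were inhibitors or atypical IkB proteins: Nfkbia, Bcl3, Nfkbid and Tnfaip3, the last a ubiquitin-editing enzyme that ends NF-kappaB signalling. Bcl3 had 0.750 and 1.27 scaled CPM against 7.30 and 8.31, and Tnfaip3 had 1.96 and 2.63 against 6.52 and 6.18. Nfkbid passed the filter on low values only through the Cnot3 libraries, which favours a higher call. The list median was only 0.21. In the BMP and TGF-beta list 5 of 37 were higher. Id1 (chr2:152736251-152737410, plus strand), an inhibitor of basic helix-loop-helix factors and a direct BMP target, stood at 3.40 and 4.57 against 52.4 and 185 (23.6-fold, limma adjusted p = 0.00943). Id3 had 4.85 and 7.42 against 29.5 and 149, and Id2 had 0.865 and 1.45 against 3.74 and 11.1. For all 3 Id genes Cnot3-2 was the highest library and the groups did not overlap. Skil and Smad7, inhibitors of SMAD signalling, were the other members called, with log2 fold changes of 1.70 and 1.81.

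Notch and Wnt genes gave 6 calls of 44 and a median of 0.66. Nrarp, a Notch feedback inhibitor, had 2.08 and 3.98 against 20.7 and 31.1, and Axin2, a Wnt feedback inhibitor, had 1.79 and 2.13 against 7.84 and 24.6. The other called members were Maml1, Dll1, Fzd8 and Hes1. Of 24 SOCS and gp130 genes 5 were higher, among them Socs3, an inhibitor of JAK kinases, at 0.981 and 2.54 against 10.3 and 16.9. Lif, a gp130 cytokine, was listed at 0 and 0.498 scaled CPM with control IgG and 4.49 and 5.22 with anti-Cnot3. It passed the filter on low values only through the Cnot3 libraries, as did the called Socs1 and Clcf1, so these 3 of the 5 calls are given as values. Of 27 mTORC1 inhibitor and stress genes 1 was called, Ddit4, an mTORC1 inhibitor, at 15.3 and 10.8 against 82.7 and 568. The spread between the Cnot3 libraries was wider for Ddit4 than for the other genes of the group named here. The count of 24 for these lists was 0 without IgG-1, 12 without IgG-2, 59 without Cnot3-1 and 6 without Cnot3-2.

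**Figure D2:**
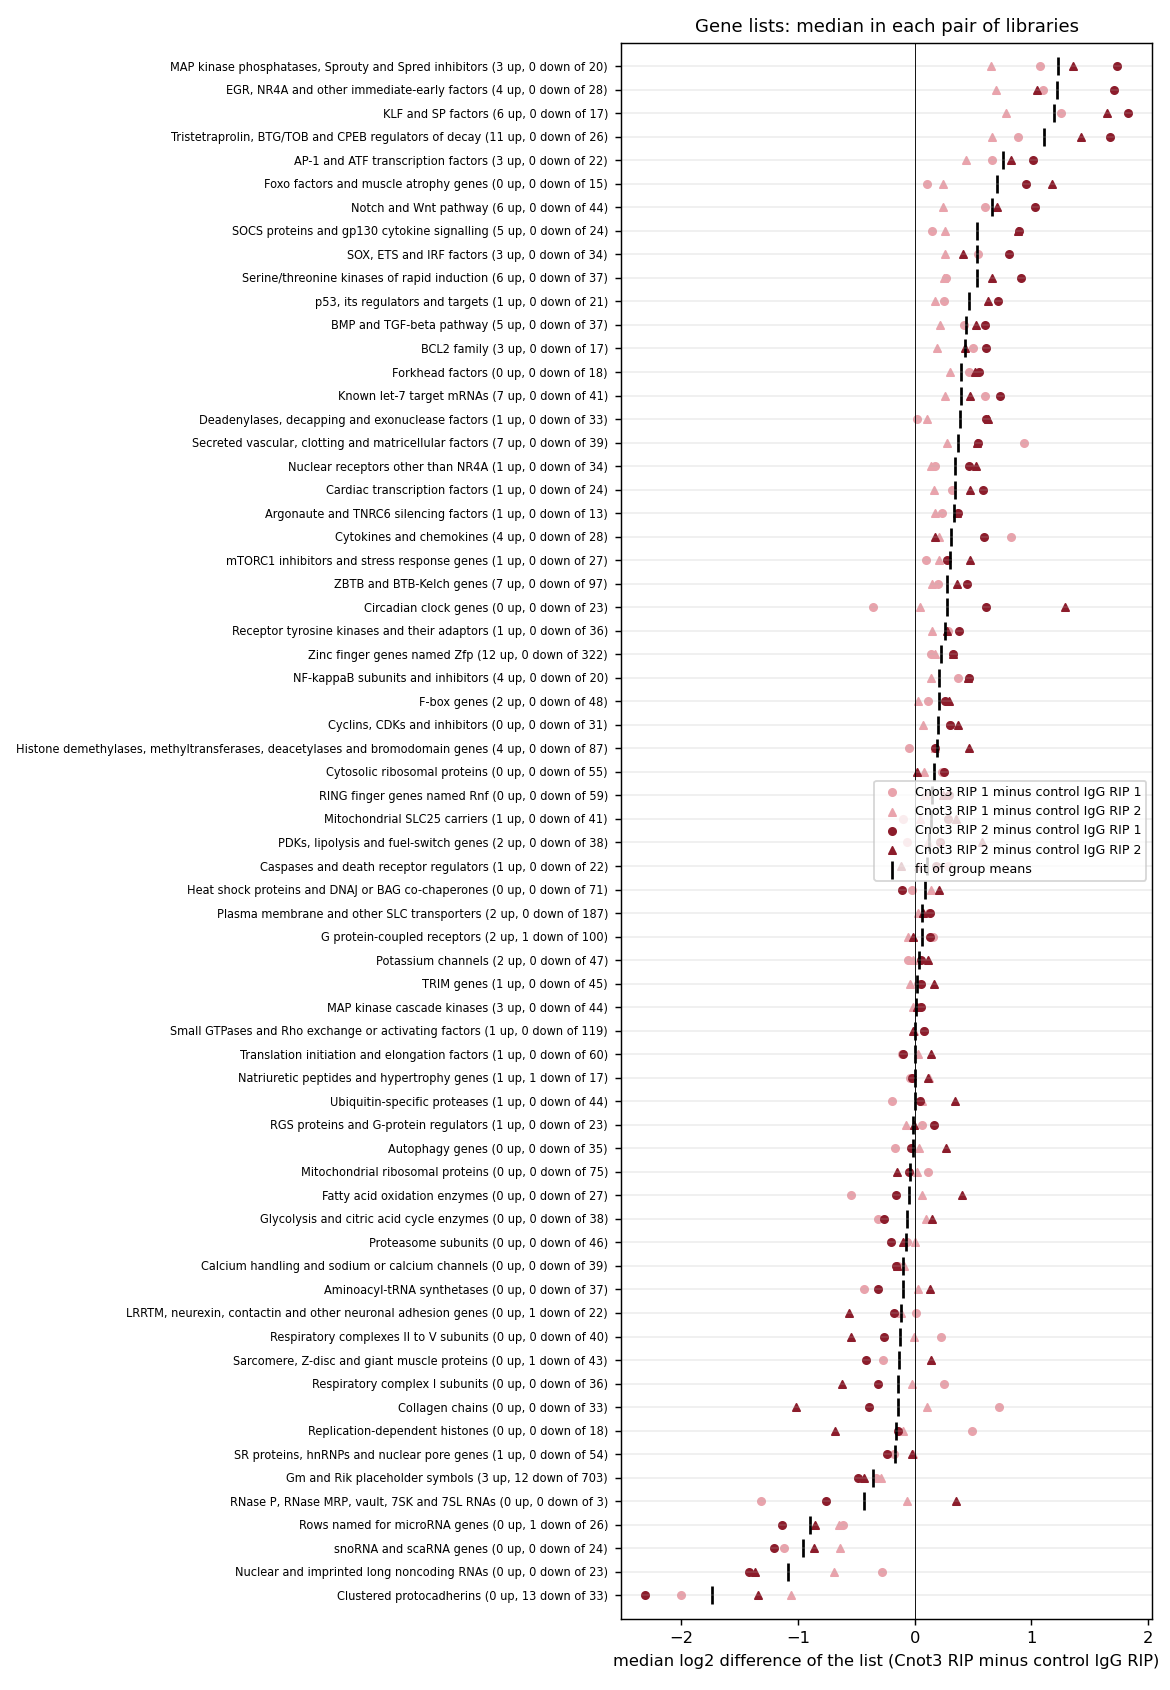
Median log2 difference (Cnot3 RIP minus control IgG RIP) of each of the 66 gene lists, with bars for the fit of group means and points for the 4 pairs of single libraries; labels give the number called higher and lower of those tested. The lists of MAP kinase phosphatases (1.23), immediate-early factors (1.22), KLF and SP factors (1.19) and decay regulators (1.11) lie at the top and clustered protocadherins (-1.74) at the bottom.

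Transcription factor genes supplied the most calls, 41 of 700 higher and 0 lower, with a median of 0.31. The densest list was that of the Krüppel-like and SP factors, in which 6 of 17 were called (35.3%) and 17 of 17 lay above 0, with a median of 1.19. Klf6 stood at 27.8 and 32.2 scaled CPM with control IgG and 130 and 280 with anti-Cnot3 (6.34-fold, limma adjusted p = 0.0131). Klf7 had 6.40 and 9.05 against 27.8 and 34.6, and Klf2, a flow-responsive endothelial factor, had 9.58 and 14.3 against 39.9 and 92.7. Klf3, a repressor, had 13.6 and 17.9 against 45.8 and 91.8. The remaining called members were Sp1 and Klf11, so the calls covered both activators and repressors of the family.

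Immediate-early factors had high medians but fewer calls. Of 28 EGR, NR4A, Myc-network and IER genes 4 were called, with a list median of 1.22. Myc stood at 1.15 and 1.54 against 6.63 and 20.5, and its antagonist Mnt at 5.02 and 6.43 against 16.8 and 31.2. Ier3, a stress-induced survival gene, had 3.69 and 3.71 against 15.0 and 61.9. Egr1 itself had 2.65 and 11.7 against 25.1 and 10.6, so its groups overlapped and it did not pass (limma adjusted p = 0.332). Nr4a1 overlapped likewise, at 3.29 and 11.2 against 16.4 and 5.85. For both of these genes IgG-2 and Cnot3-1 were the higher libraries of their groups. Of 22 AP-1 and ATF factors 3 were called. Fos had 0.981 and 4.57 against 29.4 and 21.2, Junb 0.981 and 1.49 against 4.31 and 8.52, and Fosl2 16.2 and 28.7 against 55.4 and 69.0. Jun, at 19.6 and 18.5 against 40.7 and 117, missed the threshold (limma adjusted p = 0.059).

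Developmental and zinc finger factors added smaller differences. Of 34 SOX, ETS and IRF factors 3 were called: Irf4, Sox6 and Sox9. Sox6 rose from 38.0 and 37.3 to 87.6 and 121, a 2.73-fold difference. Among 24 cardiac factors 1 was called, Irx3, a homeobox factor of the conduction system, at 4.67 and 4.53 against 10.3 and 23.1. Yet 23 of those 24 lay above 0, with a median of 0.35. Of 34 nuclear receptors other than NR4A 1 was called, the orphan receptor Nr6a1, at 1.90 and 2.67 against 8.34 and 16.1.

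The 322 Zfp genes, most of which encode DNA-binding zinc finger proteins, had 12 calls (3.73%) and a median of 0.22. Zfp217 stood at 9.69 and 10.8 against 33.4 and 47.5, and Zfp712 at 1.5 and 1.81 against 6.98 and 11; 3 of the 12 are the tristetraprolin genes. Of 97 ZBTB and BTB-Kelch genes 7 were higher (7.22%), for example Zbtb34 at 8.02 and 11 against 34.3 and 68.6. Kbtbd8, another of the 7, passed the filter on low values only through the Cnot3 libraries. Of 87 histone modifier and bromodomain genes 4 were higher, among them Arid3a at 1.04 and 2.08 against 7.84 and 9.18, and Kmt2e at 53.1 and 57.9 against 108 and 182. Forkhead factors (18 tested) and circadian clock genes (23 tested) had 0 calls in limma and in edgeR and 1 each in DESeq2; at an unadjusted limma p under 0.05, 7 and 4 were higher. The clock list was the least even of these, its median running from -0.35 to 1.29 in the 4 library pairs. For all transcription factor lists the 41 calls became 0 without IgG-1, 18 without IgG-2, 137 without Cnot3-1 and 3 without Cnot3-2.

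Vascular and inflammatory signals held 11 calls between them, and receptors and channels few. Of 39 secreted vascular, clotting and matricellular genes 7 were higher (17.9%). Edn1 (chr13:42301476-42307990, plus strand), the precursor of the vasoconstrictor endothelin-1, stood at 0.865 and 2.40 scaled CPM with control IgG and 19.1 and 54.3 with anti-Cnot3 (18.9-fold, limma adjusted p = 0.0131). F3, tissue factor, the starter of clotting, had 5.94 and 5.52 against 40.2 and 156. The matricellular genes Cyr61 and Ctgf had 10.6 and 15.6 against 80.3 and 213, and 18.4 and 16.8 against 48.4 and 132. Adamts1, a secreted protease, had 19.4 and 24.9 against 93.9 and 180. Adm, the precursor of the vasodilator adrenomedullin, and Vegfa were also called, with log2 fold changes of 2.29 and 1.62, so the list held peptides of opposite action on vessels.

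Of 28 cytokines and chemokines 4 were higher. Tnf, whose AU-rich run is printed above, was at 0.0577 and 0.136 scaled CPM with control IgG, no more than the level of 3 reads, and at 5.59 and 3.84 with anti-Cnot3, the libraries through which alone it passed the filter on low values. Ccl2, a monocyte chemokine that passed the filter in the same way, had 0.288 and 0.634 against 2.82 and 2.79. Csf1, a macrophage growth factor, had 34.1 and 39.7 against 79.2 and 163. Leukocyte markers summed to 63.9 and 73.7 scaled CPM with control IgG and 69.4 and 48.7 with anti-Cnot3, and these groups overlapped.

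Of 100 G protein-coupled receptors 2 were higher and 1 lower. Adrb1 (chr19:56722199-56733113, plus strand), the main cardiac beta-adrenergic receptor, rose from 5.48 and 6.93 scaled CPM to 34.5 and 84.5 (8.46-fold, limma adjusted p = 0.0131). Ackr3, a chemokine scavenger receptor, had 16.3 and 22.5 against 48.8 and 99.3. Rgs2, which shortens Gq signalling, was the 1 called gene of 23 RGS and related genes, at 7.96 and 11.5 against 24.5 and 63.9. Of 47 potassium channels 2 were higher, Kcnj2, the inward rectifier that sets the resting potential, at 32.1 and 54.3 against 175 and 307, and Kcnk6. Efna1, an ephrin, was the 1 call of 36 receptor tyrosine kinase genes. Among 39 calcium handling and sodium or calcium channel genes limma and edgeR called 0 and DESeq2 2 lower; 1 was higher and 5 lower at an unadjusted limma p under 0.05. Over the 312 genes of these lists the 17 higher calls became 0 without IgG-1, 7 without IgG-2, 39 without Cnot3-1 and 5 without Cnot3-2. The 1 lower call became 0 without either control IgG library, 8 without Cnot3-1 and 0 without Cnot3-2.

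Of 37 serine/threonine kinases known for control by rapid synthesis 6 were higher (16.2%), with a list median of 0.53. Pim1 stood at 3.63 and 7.52 scaled CPM with control IgG and 24.8 and 37.6 with anti-Cnot3 (5.6-fold, limma adjusted p = 0.0198). Map3k8 had 2.77 and 2.22 against 8.12 and 23.1, and Mapk6, an atypical MAP kinase of short half-life, had 13.9 and 17.7 against 33.8 and 50.02. Plk2, Stk40 and Sik1 completed the group. Of 44 MAP kinase cascade genes 3 were higher (6.82%), of which Map3k8 and Mapk6 are shared with the first list, and the median was 0.01. The 119 small GTPase genes had 1 call, Gem, and a median of 0.00.

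Ubiquitin enzymes showed isolated calls. Of 48 F-box genes, substrate receptors of ubiquitin ligases, Fbxw7 (26.5 and 32.4 against 69.4 and 113) and Fbxo33 were called. Trim6, the gene with the repeated let-7 sites, was the 1 call of 45 TRIM genes, at 0.231 and 0.453 against 2.49 and 2.19. It passed the filter on low values only through the Cnot3 libraries. Usp42 was the 1 call of 44 ubiquitin-specific proteases. The 59 genes named Rnf had 0 calls in limma, 1 in edgeR and 3 higher in DESeq2 (13 higher and 1 lower at an unadjusted limma p under 0.05). The 12 calls over all 392 kinase, GTPase and ubiquitin genes became 0 without IgG-1, 3 without IgG-2, 50 without Cnot3-1 and 0 without Cnot3-2.

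Of 17 BCL2 family members 3 were higher, all of them pro-apoptotic BH3-only genes: Bbc3, known as Puma, at 0.173 and 0.905 scaled CPM against 3.71 and 5.73, Bcl2l11, known as Bim, at 10.7 and 16.7 against 37.0 and 68.4, and Bmf at 3.06 and 4.30 against 8.87 and 17.4. Bbc3 passed the filter on low values only through the Cnot3 libraries, so its call is given as values. Cflar, an inhibitor of caspase-8, was the 1 call of 22 caspase and death receptor genes, at 26.5 and 31.6 against 54.8 and 71.9. Ccng2, an unconventional cyclin, was the 1 call of 21 p53-related genes, at 4.67 and 4.98 against 23.1 and 57.9. Cyclins, cyclin-dependent kinases and their inhibitors (31 tested) gave 0 calls in limma and edgeR and 1 in DESeq2 (4 higher and 1 lower unadjusted). Autophagy genes (35 tested) gave 0 in all 3 tools (5 higher unadjusted), with Atg7 at 8.25 and 8.15 against 11.9 and 14.2 (limma adjusted p = 0.188). The 5 calls of these lists became 0 without IgG-1, 3 without IgG-2, 18 without Cnot3-1 and 1 without Cnot3-2.

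No difference was detected in core energy metabolism. The lists of glycolysis and citric acid cycle, fatty acid oxidation, complex I and complexes II to V together held 141 tested genes with 0 calls in limma, edgeR and DESeq2, 1 lower at an unadjusted limma p under 0.05, and a median of -0.10. Ndufa9, a complex I subunit, stood at 89.3 and 87.3 scaled CPM with control IgG and 77.1 and 68.8 with anti-Cnot3 (log2 fold change -0.28, SE 0.23, limma adjusted p = 0.627). The complex I median ran from -0.62 to 0.25 in the 4 library pairs, so its sign was not stable. The metabolic lists gave 5 calls among 404 genes (1.24%, against 1.54% of all genes). Txnip (chr3:96557957-96561883, plus strand), an inhibitor of glucose uptake, had 129 and 107 against 550 and 2147, and G0s2, an inhibitor of the lipase ATGL, had 4.10 and 5.16 against 28.2 and 166. Slc25a25, a calcium-regulated ATP-Mg carrier, Slc19a2, a thiamine transporter, and Slc35d1 were the others. Without IgG-1 or without IgG-2 these 5 calls became 0, without Cnot3-1 they became 33, and without Cnot3-2 they became 2.

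Translation and protein breakdown genes were also near 0. Cytosolic and mitochondrial ribosomal proteins, aminoacyl-tRNA synthetases and proteasome subunits held 213 tested genes with 0 calls in limma, edgeR and DESeq2 (4 higher and 2 lower at an unadjusted limma p under 0.05) and a median of -0.03. Rpl8 stood at 21.1 and 21.9 scaled CPM against 31.6 and 35.9 (limma adjusted p = 0.173), one of the larger differences of the ribosomal list. The 71 heat shock and co-chaperone genes had 0 calls in limma and edgeR and 1 higher in DESeq2 (4 higher and 5 lower unadjusted). Eif2ak3, the stress kinase PERK, at 6.06 and 6.47 against 16.7 and 39.9, and the nuclear pore gene Nup50 were the only calls of the 398 genes (0.503%, against 1.54% of all genes). Those 2 calls became 0 without either control IgG library and without Cnot3-2, and 9 without Cnot3-1.

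Heart muscle genes had 1 call in each direction among 103 (0.971% each, against 1.54% higher and 0.282% lower of all genes). Ctgf, listed also as a hypertrophy gene, was higher. Myh7 (chr14:54970684-54994626, minus strand), the slow beta-myosin heavy chain of fetal and stressed heart, was lower, at 667 and 408 scaled CPM with control IgG, 212 and 146 with anti-Cnot3 and 133.7 and 111 in Input (log2 fold change -1.57, SE 0.31, limma adjusted p = 0.0422). Mir208b, which lies in an intron of Myh7, was lower too (log2 fold change -1.66), and whether its row shares reads with that of Myh7 was not tested. The adult alpha-myosin gene Myh6 had a log2 fold change of -0.05, and the 43 sarcomere and Z-disc genes a median of -0.14. Collagens (33 tested) had 0 calls in limma and edgeR, 1 lower in DESeq2 and 4 lower at an unadjusted p under 0.05, and their median ran from -1.02 to 0.73 in the 4 library pairs, beside fibroblast marker sums of 537 and 866 with control IgG and 952 and 474 with anti-Cnot3. Foxo factors and atrophy ligases (15 tested) had 0 calls in limma and edgeR and 3 higher in DESeq2 (5 higher unadjusted), with a median of 0.70. The 1 higher call of the muscle lists became 0 without any one of the control IgG libraries or without Cnot3-2, and 9 without Cnot3-1. Myh7 was called without IgG-2 or Cnot3-1 (limma adjusted p = 0.0431 and 0.0134), and not without IgG-1 (0.369), Cnot3-2 (0.257) or either Input library (0.0734 and 0.0748).

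Known let-7 targets gave 7 calls of 41 (17.1%), with 37 above 0 and a median of 0.40. These were Hic2, Plagl2, Yod1, Arid3a, Myc, Nr6a1 and Igf2bp2. Yod1, a deubiquitinase, stood at 2.88 and 6.20 scaled CPM with control IgG and 27.2 and 46.2 with anti-Cnot3 (7.94-fold, limma adjusted p = 0.0144), and Igf2bp2, an oncofetal RNA-binding protein, at 2.77 and 2.85 against 7.41 and 12.7. The 7 became 0 without IgG-1, 5 without IgG-2, 12 without Cnot3-1 and 2 without Cnot3-2. The list holds genes from the literature as recalled, not from a deposited table, and was chosen with earlier results of these data known.

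The share of genes called higher differed with the number of motifs in the 3' UTR; no test was run on these classes. Among 11964 tested genes with an annotated 3' UTR 197 were called higher (1.65%) and 20 lower (0.167%). With no AU-rich heptamer TATTTAT, 86 of 8548 genes were called (1.01%). With 1 the share was 2.22%, with 2 it was 4.46%, with 3 it was 5.26%, and with 4 or more it was 8.75% (14 of 160). Of these 14, Tnf, Eno2, Lif and Clcf1 passed the filter on low values only through the Cnot3 libraries, which favours a higher call. The median log2 difference rose over the same classes from -0.03 through 0.12, 0.21 and 0.30 to 0.37, and in the class of 4 or more it was 0.20 to 0.64 in the 4 library pairs. Of the called genes 56.3% held a heptamer, against 28.6% of all, and 88.8% held a pentamer, against 67.3%. The order of the heptamer classes was thus the same for the share called and for the median. From 0 to 4 or more heptamers the share was 5.65%, 12%, 16.5%, 19.2% and 24.4% without Cnot3-1, and 0.339%, 0.8%, 2.3%, 2.63% and 3.12% without IgG-2. Without Cnot3-2 it was 0.14%, 0.267%, 0.811%, 1.5% and 0%, so the last class broke the order there, and without IgG-1 no gene was called. The median of the last class was 0.58, 0.42, 0.21 and 0.33 in these 4 fits. Each heptamer holds a pentamer. By number of pentamers the share called was 0.562% (0), 1.19% (1 to 2), 2.78% (3 to 4), 3.16% (5 to 7), 2.66% (8 to 12) and 4.79% (13 or more). It fell between the classes of 5 to 7 and 8 to 12, while the median rose throughout from -0.10 to 0.25.

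Sites for let-7 followed a like order. With no site 155 of 10804 genes were called (1.43%), with 1 site 28 of 1020 (2.75%), with 2 sites 10 of 119 (8.40%) and with 3 or more sites 4 of 21 (19%), the last being Hic2, Nr6a1, Trim6 and Fign, of which Trim6 passed the filter on low values only through the Cnot3 libraries. The medians were 0.00, 0.13, 0.26 and 0.75. With 2 sites the share was 21% without Cnot3-1, 2.52% without IgG-2 and 0% without Cnot3-2 or IgG-1, and with 3 or more it was 33.3%, 4.76%, 4.76% without Cnot3-2 and 0% without IgG-1. A let-7 site was held by 9.70% of all 3' UTRs and by 21.3% of those of called genes. Fign, an AAA-family ATPase with 3 sites, had 21.6 and 23.2 scaled CPM against 44.2 and 74.3. Genes with both an AU heptamer and a let-7 site were called in 5.82% of 481 cases, those with a heptamer only in 2.83%, those with a let-7 site only in 2.06%, and those with neither in 0.915%. Pumilio elements (TGTANATA) gave 1.26%, 2.37%, 3.67% and 4.08% for 0, 1, 2 and 3 or more, and were held by 25% of all 3' UTRs. Seed complements of the muscle microRNA miR-1 (ACATTCC) gave 1.48%, 2.49% and 7.28% for 0, 1 and 2 or more. Those of miR-133 (GGACCAA) gave 1.58%, 2.25% and 3.39% in limma, the last being 4 of 118 genes. In edgeR the miR-133 shares were 1.88%, 2.70% and 2.54%, and the medians were 0.00, 0.19 and 0.01, so neither rose throughout. Of all 3' UTRs 10.3% held a miR-1 match and 8.43% a miR-133 match. In the last miR-133 class 12 of the 118 genes were called lower, all of them protocadherins with the same 3' UTR. All motifs were searched on the transcript strand only, and the letters describe the annotated transcript, not a measured site.

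**Figure D3:**
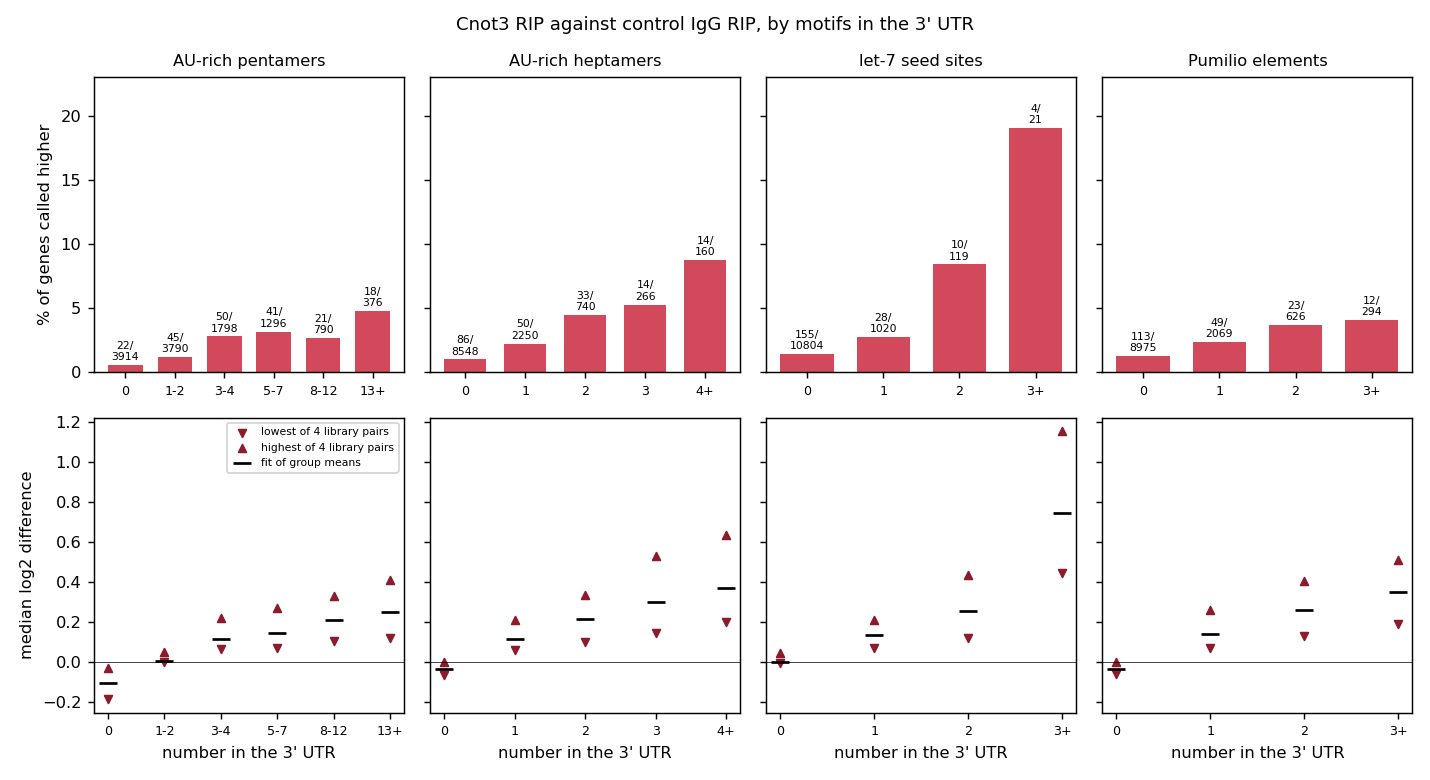
Share of genes called higher (top, with counts) and median log2 difference (bottom, bars for the fit, triangles for the lowest and highest of the 4 library pairs) by number of motifs in the 3' UTR. From 0 to 4 or more AU heptamers the share rises from 1.01% to 8.75%, and from 0 to 3 or more let-7 sites from 1.43% to 19%, the last class holding 21 genes. Called genes that passed the filter on low values only through the Cnot3 libraries are Tnf, Eno2, Lif and Clcf1 in the last heptamer class and Trim6 in the last let-7 class.

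Transcript structure ran along with the difference. From the shortest to the longest of 5 equal bins of 3' UTR length the share called rose from 0.5% to 3.13% and the median log2 difference from -0.13 to 0.20. The called genes had a median 3' UTR of 1842 bases against 1023 over all, and a median of 5 exons against 9. Genes with 1 exon were called in 4.78% of cases, those with 2 exons in 5.29%, and those with 21 or more in 0.294%. Spearman's rho across genes between the log2 difference and 3' UTR length was 0.29, and that with exon number -0.25; genes are not independent replicates, share the libraries, and no p is given. For the share of G or C at the third codon position rho was 0.03, while the share called was 2.47% (59 of 2392) in the highest of 5 equal bins and 1.21% to 1.59% in the others. Longer 3' UTRs hold more motifs of any kind, so the classes were also read within 4 equal bins of length. In the second bin (419 to 1023 bases), genes with 0, 1 and 2 or more AU heptamers were called in 0.785%, 1.96% and 10.2% of cases, in the third in 1.15%, 1.43% and 6.73%, and in the longest in 2.04%, 3.34% and 4.05%. In the shortest bin 17 of 2813 genes with no heptamer were called (0.604%); of 162 with 1 and 20 with 2 or more, limma and edgeR called 0 and DESeq2 1 in each class, with 11 and 5 higher at an unadjusted limma p under 0.05. For let-7 sites, genes with none and with 1 or more were called in 1.5% and 4.04% of the third bin and in 2.58% and 4.3% of the longest, but in 1.3% and 1.33% of the second. In the shortest, 17 of 2935 with none were called (0.579%), and of 60 with 1 or more limma, edgeR and DESeq2 called 0 (3 higher at an unadjusted limma p under 0.05). For Pumilio elements, the shares with none and with 1 or more were 0.467% and 1.9% in the shortest bin, 1.02% and 2.88% in the second and 1.41% and 2.69% in the third, but 2.9% and 2.99% in the longest.

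**Figure D4:**
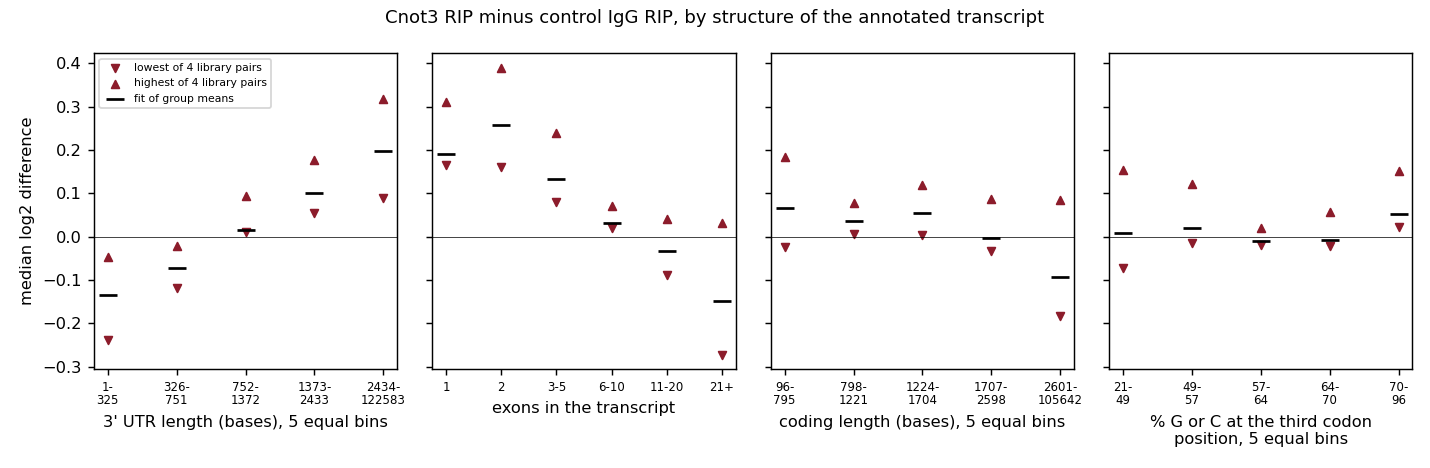
Median log2 difference (Cnot3 RIP minus control IgG RIP) in 5 equal bins of 3' UTR length, by exon number, and in 5 equal bins of coding length and of G or C content at the third codon position, with triangles for the lowest and highest of the 4 library pairs. The median rises with 3' UTR length from -0.13 to 0.20 and falls from 2 exons onward, while codon G or C content shows no steady order.

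The lower genes were of another kind. Of the 37, 13 were clustered protocadherins, neuronal cell adhesion genes, out of 33 tested, with a list median of -1.74 (-2.31 to -1.06 in the 4 library pairs). Pcdhgb8 stood at 33.5 and 18.9 scaled CPM with control IgG, 6.06 and 6 with anti-Cnot3 and 3.51 and 2.22 in Input (log2 fold change -2.02, SE 0.32, limma adjusted p = 0.0256). Pcdhga8 had 53.6 and 22.9 against 8.02 and 7.86, with 1.38 and 1.40 in Input. Genes of the gamma cluster share their last exons, so how the counting split reads among them is uncertain and the 13 are not independent. Lrrtm3 (chr10:63928472-64090277, minus strand), a synaptic adhesion gene, was the 1 call of 22 neuronal adhesion genes, at 47.0 and 26.8 against 10.5 and 7.89. Its levels in Input were 2.49 and 2.27, so for these genes the control IgG libraries lay above both of the others.

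Nerve and Schwann cell markers summed to 2.42 and 3.21 scaled CPM with control IgG, 1.46 and 1.44 with anti-Cnot3 and 3.51 and 2.46 in Input, with 3 of 6 markers tested; their part in the protocadherin result was not tested. The 14 lower calls of the adhesion lists became 0 without IgG-1, 18 without IgG-2, 21 without Cnot3-1 and 0 without Cnot3-2. Gpr17, an orphan receptor, was also lower, at 23.3 and 20.01 against 10.1 and 4.62.

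Long noncoding RNA genes lay lower than protein-coding genes in their median. Of 405 tested genes annotated as antisense, long intergenic or other long noncoding RNA, 0 were higher in limma and 8 lower (1.98%, against 0.282% of all genes), with a median of -0.73 (-0.94 to -0.46 in the 4 pairs). Protein-coding genes, 12123 in number, had a median of 0.01. Lincpint, a long intergenic RNA, is not among the 405, since its symbol had no match in the annotation. It had 20.6 and 10.6 scaled CPM with control IgG and 4.49 and 3.66 with anti-Cnot3 (limma adjusted p = 0.0348). Of 23 well-known nuclear and imprinted long noncoding RNAs limma and edgeR called 0 and DESeq2 5 lower, with 2 higher and 10 lower at an unadjusted limma p under 0.05 and a median of -1.09. Neat1, the scaffold of paraspeckles, had 1648 and 847 against 618 and 480, and Malat1, a nuclear speckle RNA, 5429 and 8397 against 4467 and 1368; neither passed (limma adjusted p = 0.142 and 0.222).

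Small nucleolar and Cajal body RNA rows, 24 in number, all lay below 0 with a median of -0.95, and had 0 calls in limma and edgeR and 2 lower in DESeq2 (11 lower unadjusted). Such rows often share reads with introns of host genes, and the strand of counting is not given in the sources used here. The placeholder symbols Gm and Rik (703 tested) gave 3 higher and 12 lower, with a median of -0.35. Over the 797 rows of the noncoding lists the 13 lower calls became 0 without IgG-1, 8 without IgG-2, 91 without Cnot3-1 and 0 without Cnot3-2, and the 3 higher calls became 0, 1, 26 and 1.

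**Figure D5:**
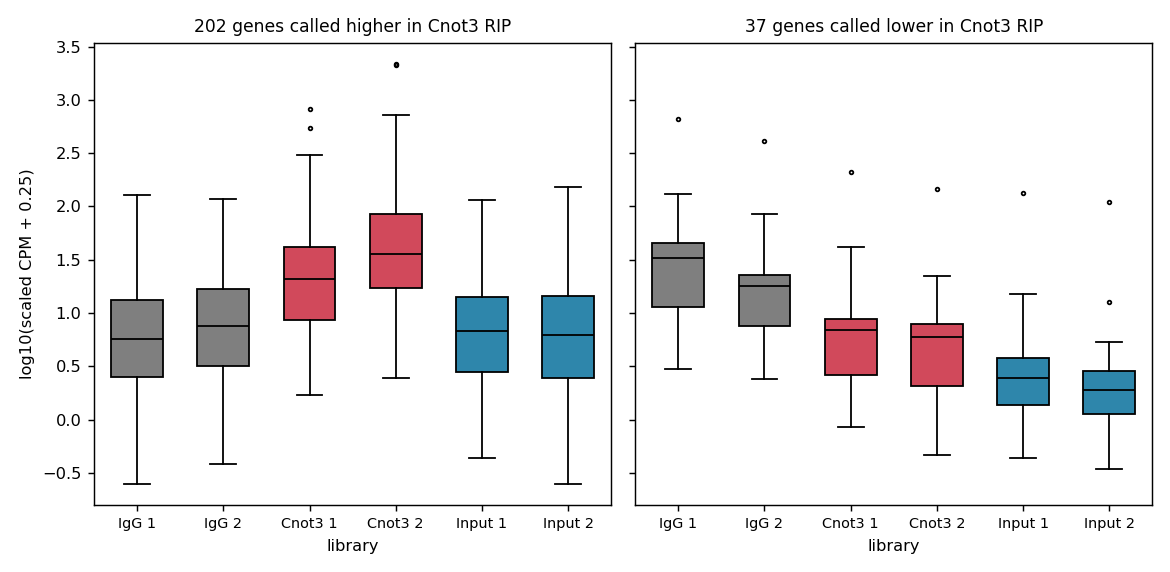
Distribution of log10(scaled CPM + 0.25) in each library for the 202 genes called higher and the 37 called lower (box over the middle 50% of genes, line at the median, whiskers to the last gene within 1.5 box lengths, points beyond). In the higher set the medians are 5.48 and 7.29 scaled CPM with control IgG, 20.5 and 35.7 with anti-Cnot3, and 6.51 and 6.03 for Input; in the lower set they are 32.3 and 17.6, 6.66 and 5.64, and 2.21 and 1.64.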

How the data were processed

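The deposited table holds CPM per gene symbol for 2 control IgG RIP, 2 Cnot3 RIP and 2 Input libraries, made by the authors from reads aligned to mm10; the submitters' processing notes name TopHat2 2.1.0, Bowtie2 2.2.5, CASAVA 1.8, edgeR and FastQC. Counter, annotation, library kit and strand setting: not given in the sources used here. CPM were whole multiples of the value of 1 read in 100% of cases (tolerance 0.01 read), so read numbers were recovered. CPM were rescaled with TMM factors (edgeR 4.0.16) and tested as log2(scaled CPM + 0.25) with limma 3.58.1 (R 4.3.3; trended empirical Bayes, 3 group means over 6 libraries, 3 residual degrees of freedom), adjusted by Benjamini-Hochberg over 13130 genes. Fold changes on this scale understate those of low genes. edgeR's quasi-likelihood test and DESeq2 1.42.0 on recovered reads, other scalings, filters and pseudocounts, replicate blocks and fits without each library were the alternatives. The test was also run on simulated counts with seeded changes, drawn independently for each library with the same assumed spread for all genes. Such counts cannot check the test on the library-to-library deviations seen here.

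Named genes were, by rule, the 14 higher and 8 lower called genes of smallest p without overlap and with at least 10 scaled CPM in the higher group, in each list up to 4 called members of smallest p or else 2 of smallest p, the 6 higher and 3 lower with the largest difference in level, and Cnot3. Other genes named were chosen after their values were seen. The members, the 66 lists and the markers were chosen with earlier results of these data known; 67 tested genes are in 2 or more lists. Motifs, exons and lengths come from 1 GENCODE M21 transcript per gene (longest coding sequence), with a match for 92.3% of tested genes. Symbols missing there, such as Cyr61, Ctgf and Lincpint, have no position or features. Some results are not reported here.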

Additional observations from a re-analysis of the deposited data

How the results depend on the processing

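Higher and lower counts under other settings were 592 and 33 with library size as the only scaling, which moved the median of all genes to 0.30 log2 and made 94.7% of calls higher in place of 84.5%; relative to all genes the list medians kept their sign, except that of autophagy genes (-0.01 to 0.003) here and that of ubiquitin-specific proteases (0.002 to -0.0001) with DESeq2 size factors. They were 34 and 1 with no filter on low values (18620 genes), 230 and 70 with a pseudocount of 1, 115 and 28 from the 4 immunoprecipitated libraries alone, and 573 and 160 with DESeq2 (764 genes without an adjusted p). DESeq2 size factors (193 and 44), scaling without Rn45s (240 and 32), filterByExpr (200 and 36), a pseudocount of 0.1 (192 and 30) and edgeR (242 and 53) kept the higher and lower counts within 1.5 times, and the causes of the larger moves were not tested. Leaving out each library in turn gave 0 to 1014 higher and 0 to 263 lower. Same-numbered libraries of control IgG RIP and Cnot3 RIP deviated oppositely (r = -0.32 over 13130 genes), so the numbers do not pair them; a replicate block gave 295 and 93, and the crossed pairing, chosen after seeing the data, 766 and 313. Ndufa9 changed sign with library size only (0.04), and over the fits without 1 library Pfkfb4 ran from -0.12 to 0.90 and Vaultrc5 from -1.245 to 0.11, both crossing 0 without control IgG RIP replicate 1; none of the 3 was called. Taking the transcript with the longest 3' UTR, also chosen after seeing the data, gave 8.33% called with 4 or more AU heptamers and 18.2% with 3 or more let-7 sites. With 2 libraries a group, small differences were not detectable.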

Other observations

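The Input libraries give a second reference that shares the Cnot3 or the IgG libraries with the main comparison, so the values stand side by side and are not independent. Both Cnot3 libraries lay above both Input libraries for all 202 higher genes, with a median log2 difference of 2.1 (30.6% of all genes tested lay so), and the median of control IgG RIP against Input was 0.05. Of the same genes 52 had both control IgG libraries above both Input libraries and 40 had both below; over all genes tested the shares were 29.7% and 29.1%. For the 37 lower genes both control IgG libraries lay above both Input libraries in all 37, with a median log2 difference of 3.30, and both Cnot3 libraries lay above both Input libraries in 32, with a median of 1.35. Control IgG RIP replicate 2 was above replicate 1 in 2 of the 37, against 50.6% of all genes tested.

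Chromatin and developmental genes outside the lists were among the calls and were picked after their values were seen. Tet2 and Tet3, enzymes that oxidise methylcytosine, stood at 37.1 and 37.4 against 80.7 and 134.3, and at 42.8 and 59.1 against 114 and 137 scaled CPM. Sall4, a fetal zinc finger factor with 1 let-7 site in its 3' UTR, had 1.79 and 1.86 against 5.45 and 9.09. Ptgs2 had 0.519 and 0.453 against 4.13 and 9.99.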
